A study of Mus musculus with 6 samples.

Results

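The 10 genes described here encode the TGF-β1 ligand (*Tgfb1*), the paired TGF-β receptors (*Tgfbr1*, *Tgfbr2*), the Smad proteins that carry the signal (*Smad2*, *Smad3*, *Smad4*), a pair of inhibitors of that signal (*Smad7*, *Skil*) and Runx transcription factors that act with it (*Runx1*, *Runx3*). They were chosen by name for their part in the signal that directs the IgA switch, 10 of the 46983 genes in the data, and all 10 were expressed highly enough to be tested. The study sequenced RNA from 6 libraries of splenic B cells, 3 from WT and 3 from *Hif1a* KO mice, to profile expression during IgA class switching in the absence of HIF-1α, the oxygen-regulated subunit of hypoxia-inducible factor 1. All 6 cultures received TGF-β, IL-5 and BAFF (10 ng/ml of every cytokine) on top of LPS (5 μg/ml), and RNA was taken on day 3. KO mice carried floxed *Hif1a* alleles and a cre transgene under *Mb1* (*Cd79a*), which deletes from early stages of the B lineage, and WT mice were littermates on the same C57BL/6 background with either a single floxed allele and cre or both floxed alleles and no cre. The labels do not say which kind of littermate gave each WT library, the age or sex of the mice, or whether the libraries of a group came from separate mice, so every p-value below measures the spread between these libraries only. TGF-β was added to every culture, so the data compare WT with *Hif1a* KO cells under the ligand and say nothing of cells without it.

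TGF-β1 binds the type II receptor TGFBR2, which recruits and phosphorylates the type I receptor TGFBR1. The active receptor phosphorylates SMAD2 and SMAD3, which join SMAD4, enter the nucleus and bind DNA beside partner factors, while SMAD7 blocks the receptor and SKIL (SnoN) represses Smad-bound genes. In B cells, Smad complexes and RUNX3 act at the promoter in front of the Cα exons and start the germline transcript that precedes recombination to IgA, which is why TGF-β is the cytokine that directs this switch.

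The sequence just before the start of a gene is among the places where Smad, Runx and HIF factors can bind to regulate it. RefSeq windows (GRCm38.p6) were held for 6 of the 10 genes, 9 windows in all. The 250 bases before each start were searched on both strands, and sequence farther away or past the start was not searched. The HIF core ACGTG was present in 2 of the 9 windows, both of *Runx1*, against 16.6% of all 32851 windows of that length. In the window of the upstream *Runx1* start, not shown, the first match begins 71 bases before that start, inside an annotated exon of the gene. CAGAC, the short Smad-binding element, was present in 4 of the 9 against 42.2% of all windows. TGTGGT, the Runx core, was found in 1 of the 9, the upstream start of *Runx3*, against 14.0%. The full Smad palindrome GTCTAGAC, which overlaps none of the other motifs, was found in 1 of the 9, the downstream start of *Runx3*, and is held by 0.167% of all windows. The 4 windows below belong to both receptors (for *Tgfbr1*, to the upstream of its 2 starts) and to the downstream (proximal) starts of both Runx genes. They are shown because *Tgfbr1* and *Runx1* were the genes whose WT and KO libraries did not overlap, *Tgfbr2* had the largest difference of the 10, and *Runx3* holds the palindrome. Capitals mark the HIF core, the Smad element and the Smad palindrome on either strand. Each sequence stops before the exon that begins there, and both Runx windows lie in an intron of a longer transcript of their gene.
*Tgfbr1* (chr4:47352972-47353221, plus strand): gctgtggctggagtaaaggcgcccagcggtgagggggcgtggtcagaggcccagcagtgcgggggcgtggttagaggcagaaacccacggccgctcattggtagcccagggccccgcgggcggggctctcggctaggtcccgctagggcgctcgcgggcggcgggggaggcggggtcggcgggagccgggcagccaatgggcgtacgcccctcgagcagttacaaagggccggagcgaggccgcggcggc
*Tgfbr2* (chr9:116175364-116175613, minus strand): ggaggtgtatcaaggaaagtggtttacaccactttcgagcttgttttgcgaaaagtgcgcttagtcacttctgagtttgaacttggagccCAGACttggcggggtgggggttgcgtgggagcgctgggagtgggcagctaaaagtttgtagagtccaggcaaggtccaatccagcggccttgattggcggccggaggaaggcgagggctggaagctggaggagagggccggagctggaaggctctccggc
*Runx1*, downstream start (chr16:92697330-92697579, minus strand): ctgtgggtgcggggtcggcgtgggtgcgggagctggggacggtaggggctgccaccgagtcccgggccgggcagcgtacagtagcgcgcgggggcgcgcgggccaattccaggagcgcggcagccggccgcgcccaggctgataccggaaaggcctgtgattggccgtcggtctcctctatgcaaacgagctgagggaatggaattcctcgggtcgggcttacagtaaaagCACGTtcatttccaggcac
*Runx3*, downstream start (chr4:135152295-135152495, plus strand): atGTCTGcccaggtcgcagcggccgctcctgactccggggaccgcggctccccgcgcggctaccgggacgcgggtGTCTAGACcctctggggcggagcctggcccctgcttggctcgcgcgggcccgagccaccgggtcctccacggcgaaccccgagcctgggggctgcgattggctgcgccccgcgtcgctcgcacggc
No capital falls in the *Tgfbr1* window shown, while the window of its downstream start (chr4:47385966-47386215), not shown, holds a CAGAC 203 bases before that start. The *Tgfbr2* window holds a single CAGAC that begins 160 bases before the start. The *Runx1* window holds an ACGTG on the opposite strand, 19 bases before the start. The *Runx3* window holds the palindrome 175 bases before the start and the Smad element, on the opposite strand, 248 bases before it. Distances count to the RefSeq start, which for *Runx3* lies beyond the end of the 201 bases shown. A match describes letters only and was not tested as a binding site.

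Expression was measured as FPKM, fragments on a gene scaled to its length and to the depth of the library, with 25.0 to 37.2 M reads behind each library. Between 309 reads (*Smad3* in WT replicate 3) and 20563 reads (*Tgfbr2* in WT replicate 1) lay behind each value of the 10 genes. WT replicate 1 stood with the KO libraries: on the first principal component, which held 54.7% of the variance, it scored −15.7 and the KO libraries −19.5 to −7.1, against 26.2 and 25.9 for the other WT libraries. The comparisons that WT replicate 1 moves most are therefore also given without it, and the plot of differences shows all 10 genes both ways. B-cell markers were high in all libraries, with a summed FPKM of 2991 to 3838 in WT and 2988 to 4071 in KO. Among markers of other cells, the macrophage list summed to 73.4 to 170 FPKM in WT and 66.6 to 78.6 in KO, which overlap. Without *Adgre1*, its most abundant gene, it summed to 13.6 to 79.1 FPKM in WT and 6.08 to 11.1 in KO. The neutrophil list reached 33.1 in WT replicate 1 and at most 0.528 elsewhere. Dendritic-cell markers summed to 16.2 to 17.9 FPKM in WT and 12.04 to 12.95 in KO, and platelet markers to 2.41 to 2.85 and 1.23 to 2.13, without overlap in either list. Platelet markers other than *Itga2b* did overlap, at 0.317 to 0.826 FPKM in WT and 0.168 to 0.538 in KO. T-cell markers other than *Lat* summed to at most 1.52 FPKM. The part of other cells in the values below was not tested. In such bulk samples, a gene that is lower because fewer cells express it cannot be told from one with less RNA per cell. *Hif1a* itself differed by 0.14 (SE 0.12) on the log2 scale between KO and WT, and a value summed over the whole gene does not check the removal of a part of it.

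The ligand had the highest level of the 10 genes and *Smad3* the lowest. Mean FPKM over the 6 libraries was 223 ± 13.4 (SD, n = 6) for *Tgfb1*, 136 ± 10.9 for *Runx3*, 110 ± 15.2 for *Tgfbr2* and 75.0 ± 3.83 for *Skil*. A middle group followed, with 37.0 ± 1.91 for *Tgfbr1*, 36.4 ± 1.07 for *Smad4*, 32.3 ± 3.22 for *Smad7* and 29.3 ± 3.83 for *Smad2*, and the lowest were *Runx1* at 18.9 ± 1.44 and *Smad3* at 9.41 ± 0.925. These levels ran from the 41.2 percentile of the tested genes for *Smad3* to the 96.4 percentile for *Tgfb1*. Neighbours in this order whose ranges over the libraries overlapped were *Runx3* and *Tgfbr2*, and each successive pair from *Tgfbr1* through *Smad4* and *Smad7* to *Smad2*. Overlap of ranges compares libraries without matching them, and *Smad4* exceeded *Smad7* in each of the 6 libraries. The gene length behind these values matters for such an order. The length by which each value had been divided was worked back from the steps between low values, and for 7 of the 10 genes it equalled the mean length of the annotated transcripts, short fragments included. It was 1490 bases for *Smad2*, whose longest annotated transcript has 8089 bases (5.43 times as many), and 4100 for *Skil*, whose longest has 6717 (1.64 times). Per kilobase of the longest transcript, the order of mean levels was *Tgfb1* (107), *Tgfbr2* (64.4), *Skil* (45.8), *Runx3* (41.8), *Tgfbr1* (16.1), *Smad4* (14.4), *Smad7* (12.3), *Runx1* (9.11), *Smad2* (5.40) and *Smad3* (2.64), and 5 of the 10 kept their rank. On that scale *Runx3* stood behind *Tgfbr2* and *Skil*, and *Smad2* behind *Runx1*, and only *Skil* and *Runx3* overlapped as neighbours. The length is the same in every library, so it cancels in a plain ratio of KO to WT. It enters the comparison below only through the 1 added to each FPKM before the log.

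**Figure D1:**
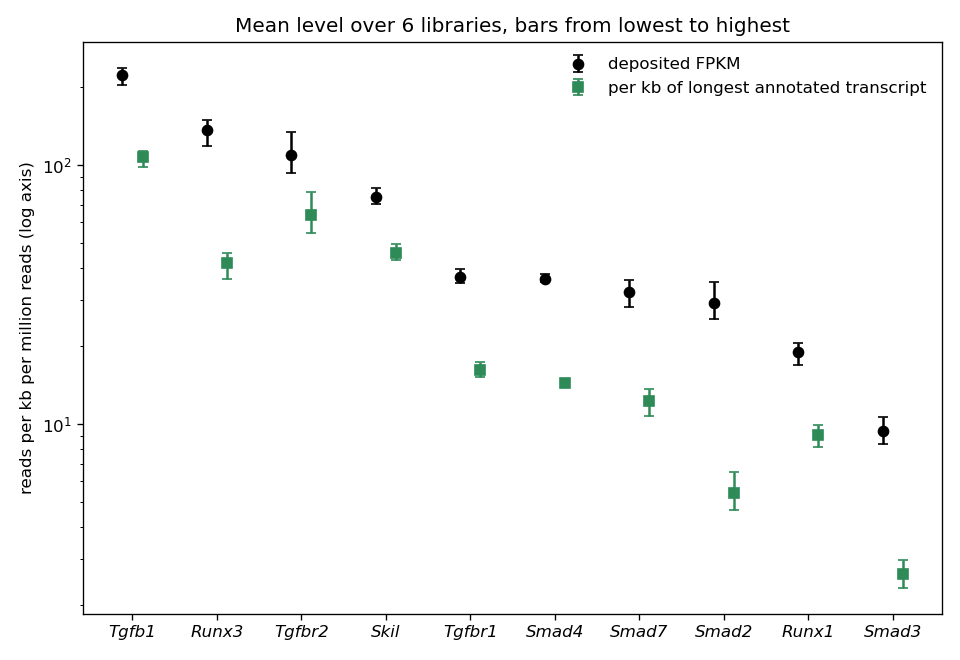
Mean level of each of the 10 genes over the 6 libraries (y axis, reads per kilobase scaled to library depth, log axis), ordered by FPKM, as deposited (black circles) and per kilobase of the longest annotated transcript (green squares), with bars from the lowest to the highest library. *Tgfb1* is highest and *Smad3* lowest on both scales, and *Smad2* and *Smad3* differ most between the scales.

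None of the 10 genes was called as different between WT and *Hif1a* KO cells in the test across all genes. The count was 0 of 10 at an adjusted p under 0.05 (limma, Benjamini-Hochberg over 13312 genes, of which 0% were called, smallest adjusted p 0.321) and 0 of 10 at an unadjusted p under 0.05, which 6.98% of all genes reached (929 genes, 330 higher and 599 lower in KO). The log2 fold changes (KO minus WT, on the log2(FPKM + 1) scale) ran from −0.21 for *Smad2* to 0.22 for *Tgfbr2*, with 8 above and 2 below 0 and a median of 0.046, beside −0.028 over all tested genes. Groups did not overlap for 2 of the 10 genes, both higher in KO, and 10.1% of all genes did not overlap, 4.06% with KO higher. With all 6 libraries, the 95% intervals of the differences reached from 0.72-fold (*Smad2*) to 1.42-fold (*Tgfbr2*). These bounds hold for that fit only. Without WT replicate 1 the log2 fold changes of *Tgfbr2* and *Smad2* were larger in size, at 0.33 (SE 0.10) and −0.32 (SE 0.08). Without WT replicate 1 again 0 of 10 were called, although 1251 genes (9.4%) were, and 3 of 10 (*Tgfbr2*, *Smad2* and *Runx1*) had an unadjusted p under 0.05, a share close to the 29.9% of all genes.

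**Figure D2:**
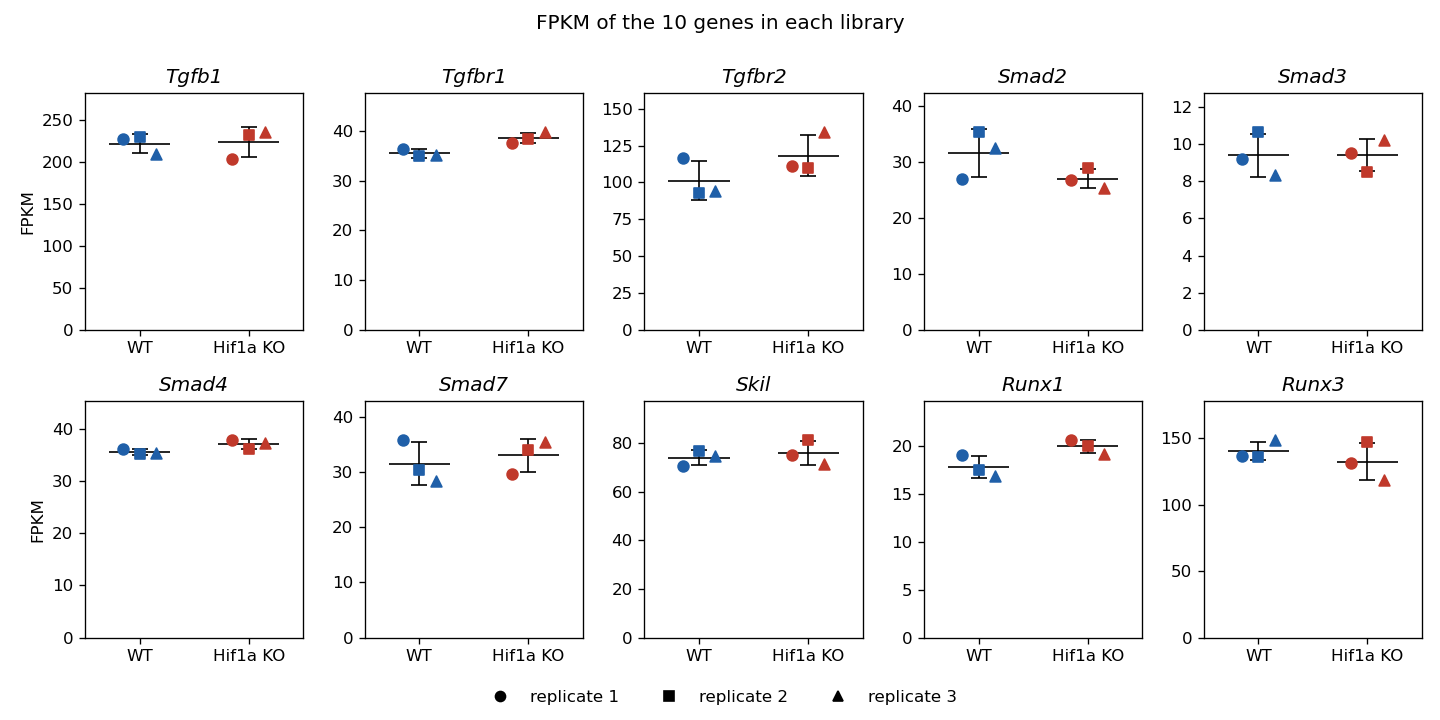
FPKM of each gene in each library (y axes start at 0), with WT in blue and *Hif1a* KO in red, symbols for the replicate number, and bars for the mean ± SD of the 3 libraries. WT and KO points separate for *Tgfbr1* and *Runx1* and overlap for the other 8 genes, and WT replicate 1 lies among or next to the KO points for *Tgfbr2* and *Smad2*.

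*Tgfb1* (ENSMUSG00000002603, chr7:25687002-25705077, plus strand) encodes the cells' own ligand, made beside the TGF-β in the medium. Its FPKM was 227, 230 and 210 in the WT libraries and 204, 233 and 236 in the KO libraries. WT replicate 3 and KO replicate 1 were the lowest of their groups, and the groups overlapped almost completely. The log2 fold change was 0.010 (SE 0.08, 95% interval −0.18 to 0.20, limma adjusted p = 0.970).

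Both receptors had a higher mean in KO than in WT cells, and neither difference passed the test. *Tgfbr1* (ENSMUSG00000007613, chr4:47353222-47414931, plus strand), the type I receptor kinase that phosphorylates SMAD2 and SMAD3, had an FPKM of 36.4, 34.9 and 35.1 in WT and 37.7, 38.4 and 39.7 in KO. Every KO library was above every WT library, by a small margin. The log2 difference, KO minus WT, was 0.12 (SE 0.06, 95% interval −0.018 to 0.26, limma adjusted p = 0.626). Its SE in this fit was at the 2.2 percentile of all tested genes. Without WT replicate 1 the log2 fold change was 0.14 (limma adjusted p = 0.167).

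*Tgfbr2* (ENSMUSG00000032440, chr9:116084293-116175360, minus strand), the type II receptor that binds the ligand first, had an FPKM of 116, 93.0 and 94.3 in WT and 111, 110 and 134 in KO. WT replicate 1 lay within the KO range, KO replicate 3 was the highest of the 6, and the other WT libraries were the lowest. On the log2 scale the KO libraries differed from WT by 0.22 (SE 0.12, 95% interval −0.056 to 0.50, limma adjusted p = 0.626). Without WT replicate 1 it was 0.33 (limma adjusted p = 0.0904). The ratio of *Tgfbr1* to *Tgfbr2* within a library, which does not depend on how libraries are scaled, was 0.313, 0.376 and 0.372 in WT and 0.340, 0.350 and 0.296 in KO. These ratios overlapped, with a log2 difference of −0.10 (exact permutation test, two-sided, p = 0.5, and 0.5 when adjusted over the 3 ratios compared here, where 3 against 3 libraries cannot give a p below 0.1). Without WT replicate 1 the difference was −0.19.

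Of the signalling Smads, *Smad2* had a lower mean in KO than in WT cells, *Smad3* and *Smad4* had nearly equal means, and none passed the test. *Smad2* (ENSMUSG00000024563, chr18:76241580-76310963, plus strand), a receptor-activated Smad, had an FPKM of 27.0, 35.3 and 32.5 in WT and 26.8, 28.9 and 25.4 in KO. As with *Tgfbr2*, WT replicate 1 lay within the KO range and the other WT libraries stood apart from it, here on the high side. This gave a log2 fold change of −0.21 (SE 0.11, 95% interval −0.47 to 0.048, limma adjusted p = 0.626). Without WT replicate 1 it was −0.32 (limma adjusted p = 0.0589).

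*Smad3* (ENSMUSG00000032402, chr9:63646767-63757994, minus strand), the other Smad activated by the receptor and one that binds DNA directly, had an FPKM of 9.23, 10.6 and 8.34 in WT and 9.52, 8.49 and 10.3 in KO. The KO values lay inside the WT range, with a log2 fold change of 0.005 (SE 0.11, 95% interval −0.26 to 0.27, limma adjusted p = 0.989). *Smad3* was the thinnest of the 10 genes in reads, with 309 to 490 per library. The ratio of *Smad2* to *Smad3* was 2.92, 3.32 and 3.90 in WT and 2.82, 3.41 and 2.48 in KO. It overlapped between the groups, with a log2 difference of −0.22 (exact permutation test, two-sided, p = 0.3, adjusted p = 0.45), and of −0.32 without WT replicate 1.

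*Smad4* (ENSMUSG00000024515, chr18:73639009-73703780, minus strand), the common partner of the activated Smads, had an FPKM of 36.3, 35.3 and 35.4 in WT and 37.9, 36.1 and 37.4 in KO. WT replicate 1 was just above KO replicate 2, and the groups otherwise separated. The log2 fold change was 0.058 (SE 0.06, 95% interval −0.076 to 0.19, limma adjusted p = 0.727), and its SE, at the 1.5 percentile of all genes, was the smallest of the 10.

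Neither inhibitor passed the test. *Smad7* (ENSMUSG00000025880, chr18:75367529-75395935, plus strand), a Smad that blocks the receptor and is itself induced by TGF-β, had an FPKM of 35.9, 30.5 and 28.4 in WT and 29.7, 34.1 and 35.5 in KO. Each group spanned nearly the same range. The log2 difference, KO minus WT, was 0.069 (SE 0.11, 95% interval −0.19 to 0.33, limma adjusted p = 0.826), and 0.16 without WT replicate 1, its highest WT library (limma adjusted p = 0.291). *Skil* (ENSMUSG00000027660, chr3:31095058-31122577, plus strand), the SnoN corepressor, also a TGF-β target, had an FPKM of 70.7, 76.7 and 74.8 in WT and 75.0, 81.2 and 71.4 in KO. Its groups overlapped, with a log2 fold change of 0.034 (SE 0.07, 95% interval −0.13 to 0.20, limma adjusted p = 0.868).

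*Runx1* had a higher and *Runx3* a lower mean in KO than in WT cells, and neither difference passed the test. *Runx1* (ENSMUSG00000022952, chr16:92601466-92826149, minus strand), which binds the same DNA core as *Runx3* and has broad roles in blood cells, had an FPKM of 19.0, 17.5 and 16.9 in WT and 20.6, 20.1 and 19.2 in KO. Every KO library was above every WT library, although KO replicate 3 exceeded WT replicate 1 only slightly. On the log2 scale the KO libraries differed from WT by 0.16 (SE 0.07, 95% interval −0.015 to 0.33, limma adjusted p = 0.626), and 0.20 without WT replicate 1 (limma adjusted p = 0.104). *Runx1* is the only one of the 10 genes with exons that overlap another annotated gene, the antisense *Gm26626*, which had a mean FPKM of 0.0585.

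*Runx3* (ENSMUSG00000070691, chr4:135120652-135177990, plus strand), a Runx factor known to act at the Cα promoter, had an FPKM of 137, 136 and 149 in WT and 132, 147 and 119 in KO. WT replicate 3 was the highest and KO replicate 3 the lowest, and KO replicate 2 lay within the WT range. This gave a log2 fold change of −0.090 (SE 0.09, 95% interval −0.30 to 0.12, limma adjusted p = 0.729). The ratio of *Runx1* to *Runx3* was 0.139, 0.129 and 0.113 in WT and 0.157, 0.137 and 0.162 in KO, a log2 difference of 0.26 with overlapping groups (exact permutation test, two-sided, p = 0.2, adjusted p = 0.45), and of 0.32 without WT replicate 1. *Runx3* exceeded *Runx1* in FPKM in every library, and the number of reads on *Runx1* was 0.269 to 0.384 of that on *Runx3*.

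**Figure D3:**
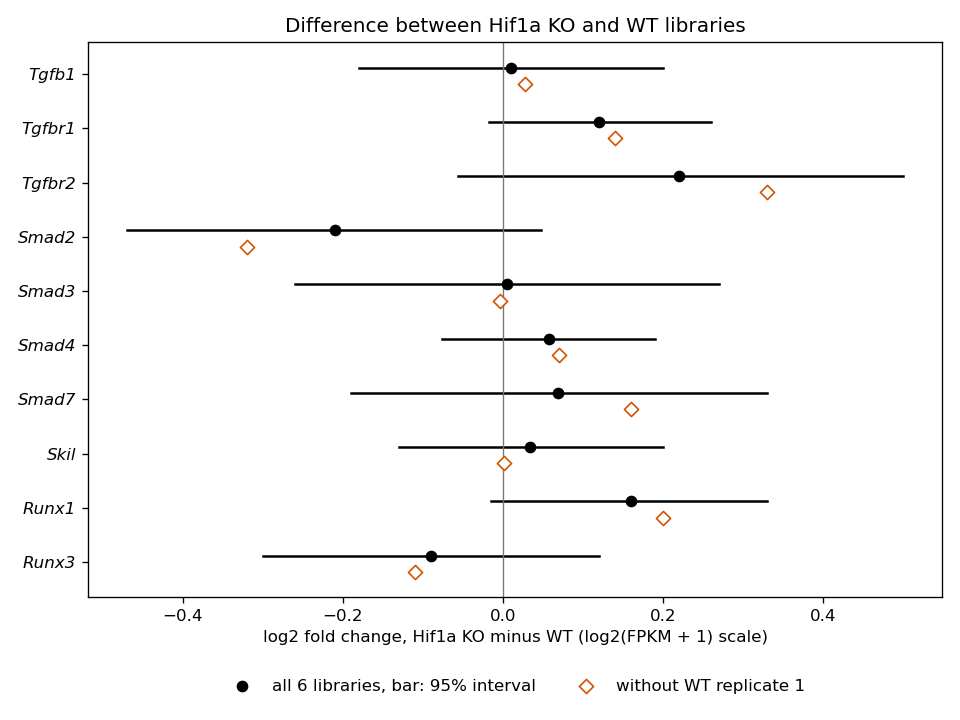
Log2 fold change of each gene between *Hif1a* KO and WT (x axis, log2(FPKM + 1) scale) with its 95% interval over all 6 libraries (black circles and bars) and without WT replicate 1 (open orange diamonds). Every black interval crosses 0, and leaving out WT replicate 1 moves *Tgfbr2* to 0.33 and *Smad2* to −0.32.

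Over the 6 libraries, some of the 10 genes varied together and others did not. *Tgfbr1* and *Tgfbr2* had a Pearson r of 0.88 in log2(FPKM + 1), while *Smad2* ran against *Tgfbr2* (r = −0.93), *Smad4* (−0.86) and *Tgfbr1* (−0.83). *Smad3* had an r between −0.33 and 0.34 with each of the other genes except *Runx3* (−0.76). These are descriptions over n = 6 libraries that share the culture conditions and also differ along the first component. The tested genes that run close to a member were many for some members and few for others: 362 of them had an r above 0.95 with *Smad2* and 282 with *Tgfbr2*, against 38 with *Tgfbr1*, 44 with *Runx1*, 35 with *Runx3* and 5 with *Smad3*. The genes most like *Smad2* were *Per3* and *4931406P16Rik* (r = 0.997 each), and those most like *Tgfbr2* were *Tspan14* (0.996) and *Ly6d* (0.995). For *Tgfbr1* they were *Cox7a2l* (0.992) and *Sit1* (0.987), for *Runx1* *9330136K24Rik* (0.989) and *Gpr174* (0.982), and for *Runx3* *Tctn1* and *Nrm* (0.993 each). *Tgfb1* was most like *Tmub1* (0.991), and *Smad7* most like *Gm9843* (0.993) and *Ten1* (0.991). *Smad4* was closest to *Mgst3* (0.982) and *Ighd2-3* (0.981), *Skil* to *BC064078* (0.979) and *Fbxl12os* (0.977), and *Smad3* to *Klf4* (0.979) and *Mrpl23-ps1* (0.966).

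The rest of the pathway was read from lists of 79 genes in 7 roles, of which 47 had a mean FPKM of at least 0.5 and were tested. None was called (limma, 0 of 47), and 5 (10.6%) had an unadjusted p under 0.05, 2 higher (*Gdf11*, *Acvr1b*) and 3 lower (*Strap*, *Cbfa2t3*, *Cdkn1a*) in KO, beside the 6.98% of all genes given above. Groups did not overlap for 3 of the 47, 2 with KO higher and 1 lower, beside 10.1% of all genes. The median log2 fold change was −0.015. Without WT replicate 1, 6 of 47 (12.8%) were called, 3 higher and 3 lower in KO, beside 9.4% of all genes.

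Few ligands other than *Tgfb1* were expressed. In the list of 20 ligand and activation genes 5 were tested, and the other TGF-β ligands fell below the limit, with *Tgfb2* at 0.0294 to 0.283 FPKM and *Tgfb3* at 0.273 to 0.611. *Nrros*, which tethers latent TGF-β1 on myeloid cells, was the most abundant, at 79.9, 60.3 and 60.7 FPKM in WT and 72.6, 68.2 and 77.8 in KO, and had a log2 fold change of 0.13 (limma adjusted p = 0.711), and of 0.26 without WT replicate 1 (adjusted p = 0.0702). *Gdf11*, a ligand that signals through activin receptors and SMAD2 and SMAD3, had an FPKM of 5.71, 3.74 and 4.51 in WT and 6.20, 7.32 and 6.0 in KO. All KO libraries were above all WT libraries, with a log2 fold change of 0.42 (SE 0.15, limma adjusted p = 0.626), and 0.55 without WT replicate 1 (adjusted p = 0.0431). *Lrrc32* (GARP), another carrier of latent TGF-β1, was called when WT replicate 1 was left out, at 0.83 (limma adjusted p = 0.0288), and had 15.9, 7.82 and 7.06 FPKM in WT and 14.3, 11.4 and 16.7 in KO, so that WT replicate 1 again lay among the KO libraries.

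Among the 13 other receptors, 6 were tested. *Acvr1b*, the activin type I receptor that also phosphorylates SMAD2 and SMAD3, was the most abundant, at 17.5, 11.9 and 11.9 FPKM in WT and 16.7, 18.2 and 19.6 in KO. WT replicate 1 was above KO replicate 1 and the groups otherwise separated, with a log2 fold change of 0.39 (SE 0.15, limma adjusted p = 0.626) and 0.57 without WT replicate 1 (adjusted p = 0.0165). *Eng*, a co-receptor of endothelial cells and macrophages, was called lower without WT replicate 1, at −1.03 (limma adjusted p = 0.0186), and had 0.664, 2.21 and 3.09 FPKM in WT and 0.720, 0.989 and 0.621 in KO. The macrophage markers summed above without *Adgre1* were also higher in WT, and *Lyz2*, one of them, was at 6.18, 58.3 and 26.2 FPKM in WT and 0.60, 2.23 and 3.70 in KO. Another macrophage marker, *Itgam*, went the other way, with a mean of 0.166 FPKM in WT and 0.192 in KO. The part of these cells in the *Eng* values was not tested.

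Of 11 other Smads and adaptors 7 were tested, with log2 fold changes from −0.20 to 0.03. *Fkbp1a*, the immunophilin that holds the type I receptor inactive, was at 173, 172 and 173 FPKM in WT and 175, 156 and 166 in KO (log2 fold change −0.060, limma adjusted p = 0.739). *Strap*, a receptor-binding protein that helps SMAD7 act, was lower in every KO library than in every WT library, at 143, 128 and 117 FPKM in WT and 117.1, 109 and 110 in KO, and had a log2 fold change of −0.20 (SE 0.08, limma adjusted p = 0.626), and of −0.13 without WT replicate 1 (adjusted p = 0.251). The lowest WT library of *Strap*, at 117.3, and its highest KO library nearly coincided. All 9 other negative regulators were tested and ran from −0.14 to 0.20, with the corepressor *Tgif1* at 0.055 (limma adjusted p = 0.793). All 6 ubiquitin regulators were tested, 5 of them below 0, with the deubiquitinase *Usp4* at −0.052 (limma adjusted p = 0.774).

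Among 8 Runx partners, 6 were tested. *Cbfb*, the subunit that stabilises Runx proteins on DNA, was the most abundant and nearly even, at 100.1, 109.5 and 105.0 FPKM in WT and 105.1, 105.3 and 105.8 in KO (log2 fold change 0.008, limma adjusted p = 0.967). *Cbfa2t3*, a corepressor of the ETO family, had 12.5, 19.2 and 19.0 FPKM in WT and 12.1, 13.6 and 9.87 in KO. WT replicate 1 lay among the KO libraries, with a log2 fold change of −0.46 (SE 0.18, limma adjusted p = 0.626) and −0.66 without it (adjusted p = 0.0349). Its relative *Cbfa2t2* had 12.5, 13.0 and 12.5 FPKM in WT and 13.6, 13.8 and 13.7 in KO, with groups that did not overlap and a log2 fold change of 0.11 (limma adjusted p = 0.632).

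Of 12 genes known to be induced by TGF-β or BMP, 8 were tested, with 2 log2 fold changes above and 6 below 0. Their median was −0.075, beside −0.028 over all tested genes. Without WT replicate 1 these medians were −0.124 and −0.050. *Id3*, an inhibitor of E proteins, was at 223, 206 and 215 FPKM in WT and 217, 239 and 179 in KO (log2 fold change −0.029, limma adjusted p = 0.931). *Cdkn1a*, the cell cycle inhibitor p21, which is induced by TGF-β and also by p53, had the widest difference of the 47 genes, at 21.6, 123 and 110 FPKM in WT and 26.7, 20.4 and 16.9 in KO. WT replicate 1 lay within the KO range, far below the other WT libraries, and the log2 fold change was −1.62 (SE 0.62, limma adjusted p = 0.626) with it and −2.41 without it (adjusted p = 0.00300).

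**Figure D4:**
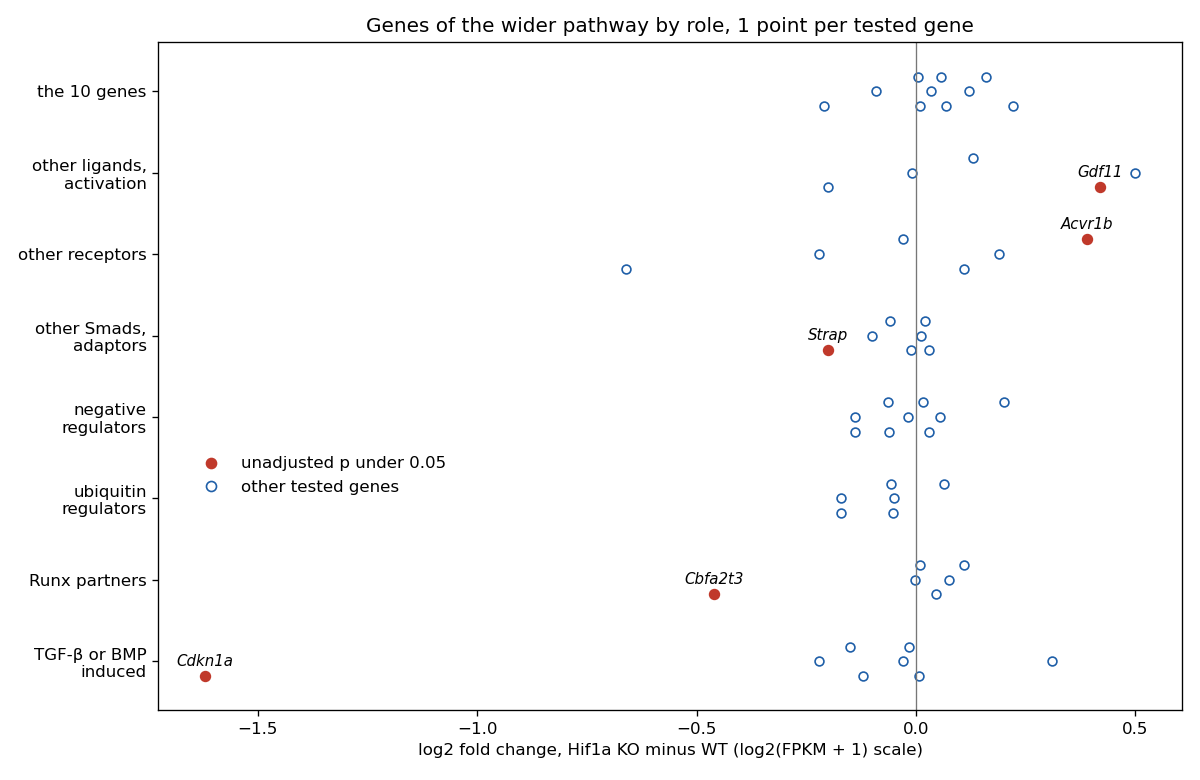
Log2 fold change between *Hif1a* KO and WT (x axis, log2(FPKM + 1) scale, all 6 libraries) of the 10 genes and of the 47 tested genes of 7 further roles, 1 point per gene, with genes at an unadjusted p under 0.05 filled in red and named. The 10 genes lie between −0.21 and 0.22, and *Cdkn1a* stands farthest from 0 at −1.62.

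The RNA of the Cα gene can be set beside these genes. *Igha*, the Cα gene, had an FPKM of 62.2, 34.7 and 32.3 in WT and 66.9, 58.0 and 74.5 in KO. Again WT replicate 1 was the WT library nearest to the KO libraries, and it lay within their range. The *Igha* log2 fold change was 0.67 (SE 0.24, limma adjusted p = 0.626), and 0.96 without WT replicate 1 (adjusted p = 0.00830), larger in size than that of any of the 10 genes, whose range without it was −0.32 to 0.33. Reads on *Igha* count germline and switched transcripts together, so they do not measure how many cells switched. By flow cytometry, the study reported a lower share of IgA-positive cells among *Hif1a* KO than WT B cells in IgA cultures. By qPCR it also reported less of the α germline transcript in the KO cells. That qPCR used cells from an earlier time in culture than these libraries, so it and the *Igha* values do not compare the same time.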

How the data were processed

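RNA of the 6 libraries was sequenced as paired-end reads. The authors removed low-quality reads, aligned to mm10 (index built with Bowtie 2.2.3) with TopHat 2.0.12, counted reads per gene with HTSeq 0.6.1 and deposited the FPKM of every gene in each library. Their own test was DESeq on the counts, and the annotation release and strand setting were not given in the sources used here. The labels name LPS as the stimulus, where the methods also allow anti-IgM plus anti-CD40. Gene symbols and positions came from GENCODE vM21, which held 46488 of 46983 gene IDs. Groups came from the sample labels, and no pair of libraries held identical values.

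FPKM values of a gene are whole multiples of what 1 read is worth, which gave the depth (25.0 to 37.2 M reads), the reads per gene and the gene length used. At the lowest depth, 1 read on 1 kilobase is worth 0.040 FPKM. Over the 12127 genes where it could be compared, this length equalled the mean annotated transcript length for 67.6%.

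WT and KO were compared on log2(FPKM + 1) with limma 3.58.1 in R 4.3.3, using lmFit and trended eBayes, over the 13312 genes whose mean FPKM reached 0.5. The Benjamini-Hochberg adjusted threshold was 0.05. A fold change on this scale understates that of low genes. Ratios of paralogs were compared with exact permutation tests (scipy 1.17.1). The remaining steps used numpy 2.4.6, pandas 2.3.3 and matplotlib 3.10.9 under Python 3.11.15. The fit was tested on simulated data.

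The members and lists were chosen with earlier results of these data known. Besides the 10 genes, the text names the most abundant tested gene of each wider list and up to 4 of its genes with the smallest p among those at an unadjusted p under 0.05 or with groups that did not overlap, *Igha* and *Hif1a*, the 2 genes most correlated with each of the 10, and markers as examples. Values of a few genes that this rule names are left out here. *Tgfb2*, *Tgfb3*, *Lrrc32* and *Eng* were added after their values were seen. Further marker lists were summed per library. Plasma-cell markers came to 399 to 715 FPKM in WT and 505 to 906 in KO, NK and innate lymphoid markers to 2.01 to 3.19 and 1.62 to 2.82, erythroid markers to 3.05 to 15.6 (15.6 and 12.2 in WT replicates 2 and 3) and 2.90 to 4.73, and stromal and endothelial markers to 82.4 to 85.7 and 76.7 to 98.4. Nearly all of the stromal and endothelial sum was *Pecam1*, without which it was 0.568 to 0.771 in WT and 0.608 to 0.711 in KO. Promoter windows were matched by symbol to RefSeq. Protein sequences were not used here.

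The main fit did not pair libraries by replicate number. Correlations of same-numbered deviations were −0.10, 0.14 and −0.28, which cannot decide whether the libraries were paired. Alternatives changed the pseudocount to 0.1, the filter to any value above 0 or to a mean FPKM of 5, the scaling to median-ratio or quantile, and the eBayes trend to none, or added the replicate number as a block or library weights. Further ones used voom on the recovered reads or left out each library in turn.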

Additional observations from a re-analysis of the deposited data

How the results depend on the processing

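Under all 15 alternatives 0 of the 10 genes were called, and 138 of 150 log2 fold changes kept their direction. The number of genes called among all tested was 0 in the design used and under most alternatives, 1449 with library weights (which gave WT replicate 1 a weight of 0.24), 0 with voom on recovered reads, and 0 to 1251 with 1 library left out, the most without WT replicate 1. The lowest adjusted p of any of the 10 genes was 0.0520, for *Smad2* with library weights, followed by 0.0605 for *Runx1* and 0.0622 for *Tgfbr2* in the same fit. The number of the 10 genes at an unadjusted p under 0.05 was 2 with all genes above 0, 2 with median-ratio scaling, 4 with library weights and 0 to 3 with 1 library left out. Without WT replicate 1, 29.9% of all genes reached that level, and the share of all genes under the other alternatives is not given. These counts are therefore not read as a result about the 10 genes. The median log2 fold change of the 10 genes was 0.090 with median-ratio scaling and 0.019 to 0.061 with 1 library left out. Of the wider lists, 6 genes were called with library weights and 0 to 6 with 1 library left out (6 without WT replicate 1), and 12 and 0 to 12 were at an unadjusted p under 0.05. The 12 without WT replicate 1 again stand beside 29.9% of all genes, and the share with library weights is not given. With the replicate number as a block, 3 of the wider genes were at an unadjusted p under 0.05 and no gene was called (0), and the block changed no other call. The correlations of same-numbered deviations were −0.10, 0.14 and −0.28. With 3 libraries a group they cannot decide whether the numbers pair the libraries.

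The direction turned for genes near 0. *Smad3* was at −0.024 with library weights, −0.007 with voom, and −0.070 to 0.089 with 1 library left out (−0.004 without WT replicate 1, −0.070 without WT replicate 3, −0.004 without KO replicate 1 and −0.052 without KO replicate 3). *Tgfb1* was at −0.004 with library weights and −0.032 to 0.078 with 1 library left out (−0.032 without WT replicate 3, −0.020 without KO replicate 2 and −0.028 without KO replicate 3). With 1 library left out, *Smad7* ran from −0.003 (without WT replicate 3) to 0.16 and *Skil* from −0.016 (without KO replicate 2) to 0.076. *Cbfb* was at −0.023 with library weights and −0.025 (without WT replicate 1) to 0.040 with 1 library left out, and *Id3* at 0.016 with median-ratio scaling, 0.025 with library weights and −0.12 to 0.086 (without KO replicate 3) with 1 left out. The cause was not tested. With 3 libraries a group, the spread between libraries limits these comparisons, and of the 10 genes *Smad3* rests on the fewest reads.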
